A study of Homo sapiens with 9 samples.

Results

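The integrated stress response regulators are 10 genes for the factors and effectors that act downstream of the eIF2 kinases, namely ATF4, DDIT3 (CHOP), ATF3, ATF5, TRIB3, CHAC1, SESN2, DDIT4, CEBPB and CEBPG. They were chosen by name for their known roles, with earlier results of these data in view, so their counts are not independent evidence, and all 10 were found by symbol among the 60880 gene IDs of the count files. Poly-A RNA was sequenced from SNU5 cells, a line established from a human gastric carcinoma, after 24 h with gold nanorods carrying ramucirumab through a PEG linker (AuNR-PEG-Ab, NR group), gold spheres carrying it in the same way (AuSP-PEG-Ab, SP group), or with unbound ramucirumab (Ab group). Ramucirumab is a monoclonal antibody against VEGFR2, and 8 μg/mL of it is taken as the dose of all 3 groups. The study states this dose and the 24 h for its cell viability assays, while its RNA methods name neither. Each group had 3 libraries, and the library totals ran from 19566064 to 26318227 counts in Ab, from 13863155 to 25735410 in NR and from 20601906 to 22914759 in SP. No library of untreated cells, of particles without antibody or of PEG-linked antibody without gold was analysed here. A level that the antibody alone raised, one that gold lowered and one that the linker lowered therefore cannot be told apart. A difference of culture or batch between the groups, which the labels do not record, cannot be told apart from these either. SNU5 is a single line. The study calls the libraries of a group biological replicates, while the labels do not say which culture each came from, and the p-values measure the spread between these libraries.

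In the integrated stress response, kinases that sense a lack of amino acids, unfolded proteins in the endoplasmic reticulum (ER), double-stranded RNA or a lack of heme phosphorylate the initiation factor eIF2. General translation then falls, while ATF4 mRNA is translated more, and the ATF4 protein turns on genes for amino acid supply, redox balance and, with CHOP, cell death. ATF4, CHOP, ATF3, ATF5, C/EBPβ and C/EBPγ are bZIP transcription factors, which bind DNA in pairs, and the other members are effectors that ATF4 is known to turn on. Since ATF4 is controlled largely at translation, its mRNA is an incomplete measure of its protein.

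ATF4 paired with a C/EBP factor is known to bind the C/EBP-ATF response element, searched here as TGATGNAA on both strands. Promoters are shown for the 3 members that hold it and, as examples picked by hand, for 3 of the targets that do, since this element links the regulators to their targets. RefSeq windows from 250 bases before to 50 bases after a gene's start (GRCh38.p14) were found for all 10 members, in 19 windows, and 3 members held a match. The capitals mark the match in the 60 bases shown, which end before the start of the gene and are written along the gene's own strand.
CHAC1: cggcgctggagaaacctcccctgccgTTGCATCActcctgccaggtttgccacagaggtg
CEBPG: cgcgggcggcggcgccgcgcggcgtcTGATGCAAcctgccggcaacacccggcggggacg
ATF3: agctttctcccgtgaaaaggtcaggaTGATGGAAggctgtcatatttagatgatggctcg
FGF21: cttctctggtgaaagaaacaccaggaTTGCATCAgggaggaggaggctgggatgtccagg
ASNS: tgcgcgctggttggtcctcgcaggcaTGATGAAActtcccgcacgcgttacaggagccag
HERPUD1: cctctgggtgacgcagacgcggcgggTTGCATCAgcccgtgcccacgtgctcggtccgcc
The stretches lie at chr15:40953236-40953295 (CHAC1, + strand), chr19:33374045-33374104 (CEBPG, + strand), chr1:212565190-212565249 (ATF3, + strand), chr19:48755444-48755503 (FGF21, + strand), chr7:97872443-97872502 (ASNS, - strand) and chr16:56931940-56931999 (HERPUD1, + strand) of GRCh38.p14. In CHAC1, FGF21 and HERPUD1 the match reads on the opposite strand, as TTGCATCA. Of a list of 53 known ATF4 and CHOP target genes, 39 had a window and 15 of these held a match, or 38.5%, against 4.46% of all 27305 genes with a window. By window, the shares were 27.8% of 54 for the targets, 15.8% of 19 for the members and 3.62% of all 35116. The AP-1 element TGACTCA, which does not overlap TGATGNAA in its letters, lay in windows of DDIT3 and ATF5 and of 6.05% of all genes, and the cAMP response element TGACGTCA lay in 0 of the 10 members and in 2.25% of all genes. A match is a run of letters and not a bound site.

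All 10 regulators were lower in both gold groups than in the Ab group, in every library. The mRNAs of CHAC1, DDIT3 and SESN2 fell by more than 10-fold, those of TRIB3 and CEBPG by about 5-fold, and those of ATF4, ATF3, CEBPB, DDIT4 and ATF5 less. A gene was called when edgeR's quasi-likelihood test gave an adjusted p of at most 0.05 (Benjamini-Hochberg over all genes tested) and a change of at least 2-fold. In NR against Ab, 9 of the 10 were called lower, where 10.3% of all 15009 genes tested were called lower and 12.4% higher. In SP against Ab, 8 of the 10 were called lower, where 10.6% of all 15068 genes were called lower and 12.6% higher. On the adjusted p alone all 10 were lower in both comparisons, against 36.4% and 36.6% of all genes, and all 10 had no overlap between the libraries of the groups, against 37.5% and 37.8% of all genes. The median log2 fold change of the 10 was -1.89 in NR and -1.996 in SP, beside -0.01 over all genes in both. The Ab libraries served both comparisons, which are therefore not independent.

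**Figure D1:**
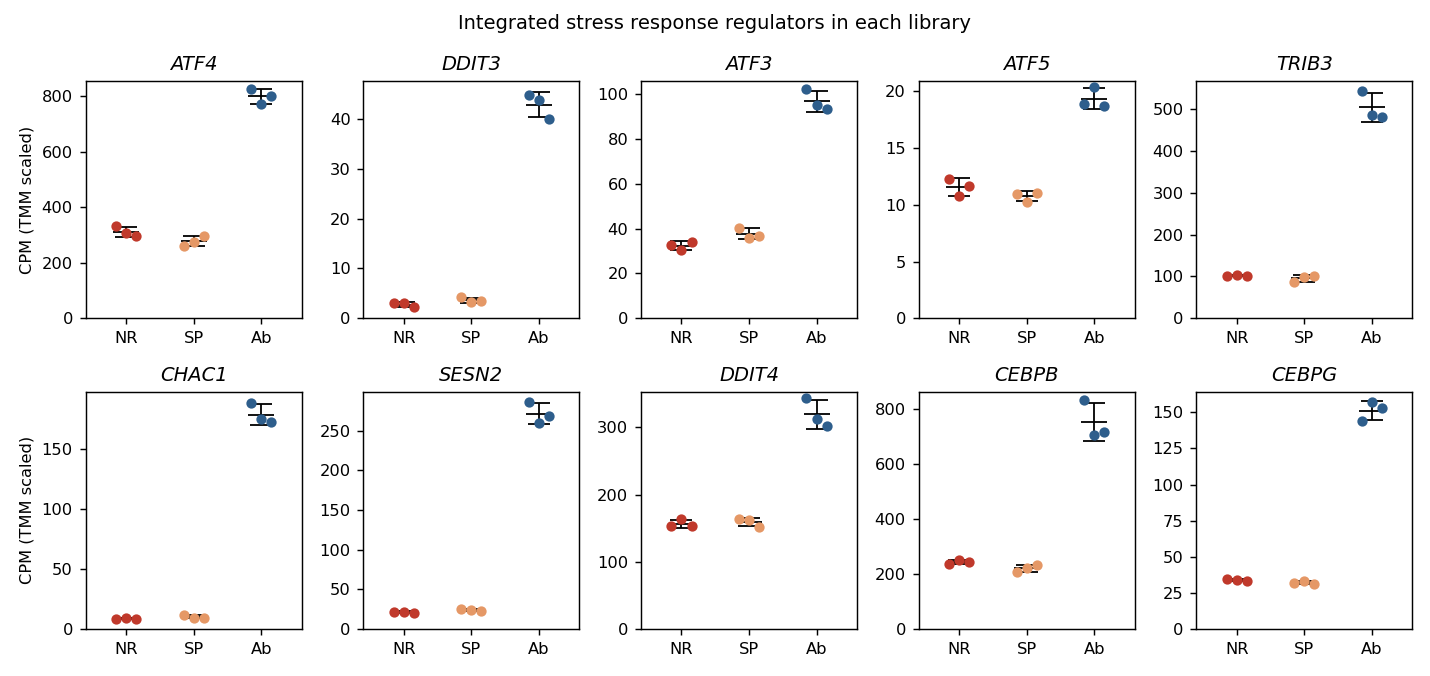
Level of each regulator in each of the 9 libraries, in CPM (counts relative to the TMM-scaled library total), with the group mean and SD (n = 3) in black. In each panel the 3 Ab libraries lie above all 6 libraries with gold, while NR and SP lie close together.

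ATF4, the central transcription factor of the response, lies at chr22:39915700-39918688 (GRCh37, + strand). Its level, given here and for the other members for libraries 1, 2 and 3 in this order as CPM (counts relative to the TMM-scaled library total), was 826, 771 and 800 CPM in Ab, 332, 306 and 296.1 in NR and 262, 276 and 295.8 in SP. The Ab libraries thus all lay far above the highest gold library, on a base of 4265 to 20093 counts per library. The log2 fold change was -1.36 ± 0.05 (SE, n = 3 and 3; edgeR adjusted p = 1.72e-20) in NR against Ab and -1.52 ± 0.05 (adjusted p = 1.11e-20) in SP against Ab, or 2.56-fold and 2.86-fold lower. Of all genes tested, 860 had a lower log2 fold change in NR and 684 in SP, beside 1547 and 1604 genes called lower. ATF4 has processed pseudogenes that can take its reads. ATF4P3 held 56 to 118 counts per library with gold and 203 to 311 with Ab, far below ATF4 itself, and its log2 fold changes were -1.33 and -1.85.

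DDIT3 encodes CHOP, the factor that links lasting ER stress to cell death, and lies at chr12:57910371-57915520 (GRCh37, - strand). It was at 44.9, 43.8 and 40.0 CPM in Ab, at 3.06, 3.01 and 2.18 in NR and at 4.21, 3.28 and 3.39 in SP. The raw counts were 862, 1141 and 825 in Ab, 79, 42 and 35 in NR and 92, 76 and 70 in SP, so that the gold groups rest on few reads. DDIT3 was 15.3-fold lower in NR (95% interval 13.1 to 17.9) and 11.8-fold lower in SP (10.2 to 13.6), with log2 fold changes of -3.94 ± 0.11 (SE; edgeR adjusted p = 2.4e-22) and -3.56 ± 0.10 (adjusted p = 1.53e-21). Only 23 genes of 15009 fell further in NR and 46 of 15068 in SP. Of the exon bases of DDIT3, 39.6% are shared with other genes, among them MARS1 and MBD6 on the opposite strand, and the sources do not state whether the counting used strand. MARS1, which encodes the methionyl-tRNA synthetase, held 1965 to 3380 counts per library with gold and 6889 to 9003 with Ab, with log2 fold changes of -1.39 and -1.29. MBD6 changed by -1.32 and -1.31. The part of these genes' reads in the DDIT3 counts was not tested.

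ATF3, a bZIP factor that stress turns on early and that lies at chr1:212738676-212794119 (GRCh37, + strand), was at 102, 94.9 and 93.4 CPM in Ab, at 32.5, 30.4 and 34.2 in NR and at 40.4, 36.0 and 36.5 in SP. No gold library came near the Ab libraries, and the log2 fold changes were -1.57 ± 0.06 in NR (SE; edgeR adjusted p = 5.42e-19) and -1.36 ± 0.06 in SP (adjusted p = 8.18e-17). ATF5, a close relative of ATF4 tied to the mitochondrial stress response (chr19:50431959-50437192, GRCh37, + strand), was the member that changed least. It was at 18.9, 20.4 and 18.7 CPM in Ab, at 12.3, 10.8 and 11.7 in NR and at 10.95, 10.3 and 11.1 in SP. ATF5 was 1.66-fold lower in NR and 1.79-fold lower in SP (edgeR adjusted p = 7.95e-08 and 5.5e-09), and so missed the 2-fold minimum in both. Other genes hold 22.1% of its exon bases too, mainly NUP62 on the opposite strand, a nuclear pore gene whose log2 fold changes were -0.26 and -0.30.

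The C/EBP members pair with ATF4. CEBPB (chr20:48807367-48809205, GRCh37, + strand), which also acts in inflammation and differentiation, was at 833, 707 and 719 CPM in Ab, at 235, 251 and 245 in NR and at 206, 224 and 232 in SP. It was 3.09-fold lower in NR and 3.40-fold lower in SP, with log2 fold changes of -1.63 ± 0.05 (SE; edgeR adjusted p = 7.16e-16) and -1.76 ± 0.06 (adjusted p = 2.12e-13). The antisense gene CEBPB-AS1, which shares part of its exon, held 20 to 48 counts per library. CEBPG (chr19:33864591-33873592, GRCh37, + strand), whose product lacks a strong activation domain of its own and works as a partner, was at 144, 157 and 153 CPM in Ab, at 34.25, 34.22 and 33.13 in NR and at 31.92, 33.12 and 31.38 in SP. CEBPG was 4.46-fold lower in NR and 4.68-fold lower in SP (log2 fold changes of -2.16 ± 0.06 and -2.23 ± 0.06, SE; edgeR adjusted p = 4.86e-23 and 2.54e-22).

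Among the effectors, CHAC1 changed most of all 10 members. CHAC1 degrades glutathione and lies at chr15:41245160-41248710 (GRCh37, + strand). Its level was 188, 174 and 172 CPM in Ab, 8.36, 9.40 and 8.49 in NR and 11.6, 9.10 and 9.43 in SP. Each Ab library held 3551 to 4540 counts of CHAC1 and each gold library 131 to 254. It was 20.5-fold lower in NR (95% interval 18.6 to 22.6) and 17.6-fold lower in SP (15.8 to 19.7), with edgeR adjusted p of 2.27e-27 and 7.19e-25. Of all genes tested, 15 fell further in NR and 19 in SP.

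SESN2 (sestrin 2), which restrains mTORC1 when leucine is scarce, lies at chr1:28586029-28609002 (GRCh37, + strand). It was at 286, 260 and 269 CPM in Ab, at 21.9, 21.4 and 19.8 in NR and at 24.5, 23.8 and 22.3 in SP. SESN2 was 12.8-fold lower in NR (95% interval 11.8 to 13.9; edgeR adjusted p = 2.27e-27) and 11.5-fold lower in SP (10.54 to 12.5; adjusted p = 2.46e-26), and the libraries within a group lay within a narrow range. DDIT4 (REDD1), the other member that restrains mTORC1 (chr10:74033678-74035794, GRCh37, + strand), changed far less. It was at 344, 313 and 303 CPM in Ab, at 154, 163 and 153 in NR and at 164, 162 and 152 in SP. DDIT4 was 2.04-fold lower in NR, just inside the 2-fold minimum, and 1.998-fold lower in SP, just outside it (edgeR adjusted p = 7.24e-17 and 4.63e-16). The 95% intervals of its log2 fold change, -1.13 to -0.93 and -1.10 to -0.89, both span -1, so the different calls do not show different responses.

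TRIB3, a pseudokinase that binds ATF4 and CHOP and limits their activity, lies at chr20:343479-378203 (GRCh37, + strand). It was at 545, 486 and 482 CPM in Ab, at 100.8, 102.8 and 101.0 in NR and at 86.1, 99.58 and 100.5 in SP. The lowest Ab library was far above the highest gold library, and TRIB3 was 4.96-fold lower in NR and 5.26-fold lower in SP (edgeR adjusted p = 8.79e-25 and 8.23e-17).

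**Figure D2:**
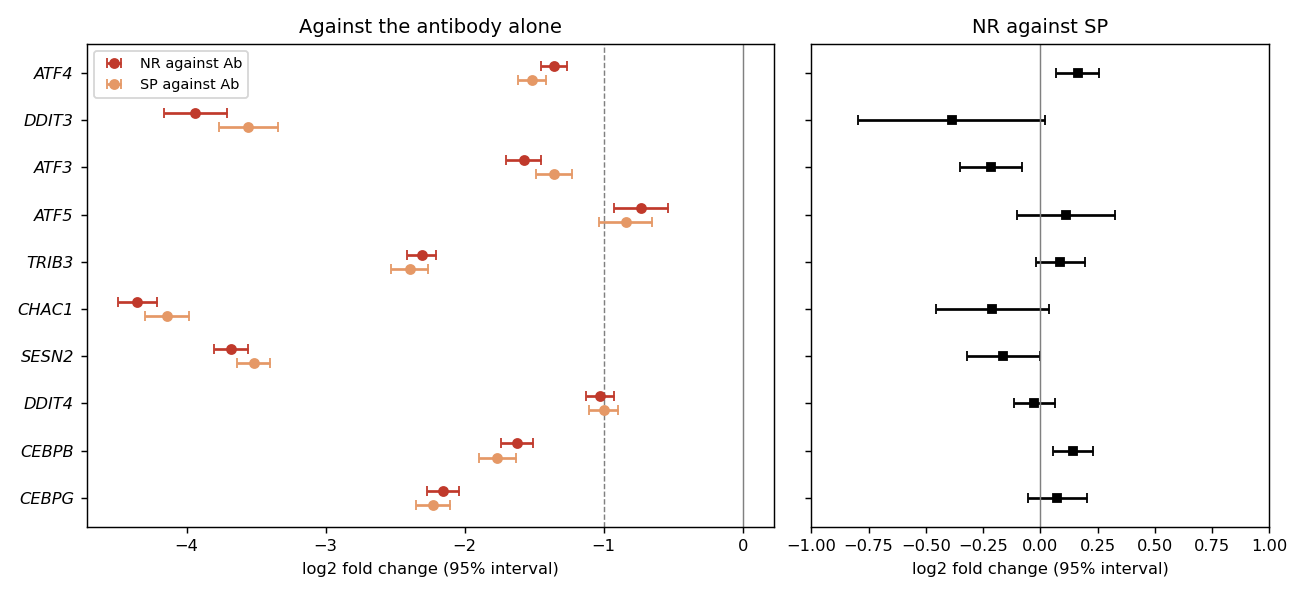
Log2 fold change of each regulator with its 95% interval from edgeR, against the antibody alone on the left (NR dark, SP light, dashed line at 2-fold lower) and for NR against SP on the right, where the axis is narrower. CHAC1, DDIT3 and SESN2 lie farthest to the left at -4.36 to -3.52, and in NR against SP every estimate lies between -0.39 and 0.16.

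Per kb of exon, the scale on which levels can be set beside each other between genes, CEBPB was the highest member in the Ab group at 410 ± 38 CPM per kb (SD, n = 3), followed by ATF4 at 306 ± 10. DDIT4 and TRIB3 came next at 155 ± 10 and 153 ± 11, which did not differ beyond their spread. CHAC1 (86.9 ± 4.3) and SESN2 (78.4 ± 3.8) followed, then CEBPG (37.3 ± 1.7), DDIT3 (32.8 ± 2.0), ATF3 (24.2 ± 1.2) and ATF5 (6.69 ± 0.32). In the NR group CEBPB and ATF4 were still the highest, at 133 ± 4 and 119 ± 7, and DDIT4 was at 76.1 ± 2.8 and TRIB3 at 30.9 ± 0.3. CHAC1 and SESN2, which ranked above CEBPG in Ab, were below it with gold, at 4.27 ± 0.28 and 6.07 ± 0.30 against 8.35 ± 0.16 CPM per kb in NR. DDIT3 was the lowest of the 10 in both gold groups, at 2.11 ± 0.38 in NR and 2.77 ± 0.39 in SP. Other genes share 39.6% of the exon bases of DDIT3 and 22.1% of those of ATF5. How reads in shared bases were counted is not stated, and the effect on these ranks was not tested. The SP group held the same 3 genes at the top, with CEBPB at 120 ± 7, ATF4 at 106 ± 7 and DDIT4 at 77.3 ± 3.1 CPM per kb.

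NR against SP compares rods with spheres at the same nominal antibody dose. By the study's account these particles also differ in size, supplier and measured surface charge, so the comparison does not isolate shape. In NR against SP, 0 of the 10 members were called or passed the adjusted p by edgeR. Among all 14903 genes tested, 0.0201% were called and 0.443% passed the adjusted p. At an unadjusted p under 0.05 there were 4 members, ATF4, ATF3, CEBPB and SESN2, where 12.9% of all genes reached it, and DESeq2 called 0 of the 10 as well. ATF4 was 1.12-fold higher in NR, with a log2 difference of 0.16 (95% interval 0.07 to 0.26; edgeR adjusted p = 0.101), and CEBPB was 1.10-fold higher (0.05 to 0.23 on the log2 scale; adjusted p = 0.127). ATF3 was 1.16-fold lower in NR (log2 interval -0.35 to -0.08; adjusted p = 0.137) and SESN2 1.12-fold lower (-0.32 to -0.0035; adjusted p = 0.376). The intervals for DDIT3 (-0.79 to 0.02) and CHAC1 (-0.46 to 0.04) were wider, and these genes had 35 to 92 and 131 to 254 counts per library with gold. For TRIB3, CEBPG, ATF5 and DDIT4 the differences were 0.09, 0.07, 0.11 and -0.03. The libraries of NR and SP had no overlap for 7 members, with ATF4, TRIB3, CEBPB and CEBPG higher in NR and DDIT3, ATF3 and SESN2 lower, where 17.8% of all genes had no overlap in either direction. For ATF4, TRIB3, CEBPG, DDIT3 and SESN2 the nearest libraries of the groups lay within 1 CPM of each other. ATF4 was called in 0 of 12 alternatives. It passed the adjusted p in 2 of them, without library 3 of SP (0.0260) and with no filter beyond 1 count (0.0101), and the adjusted p over the 12 ranged from 0.0101 to 0.344.

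**Figure D3:**
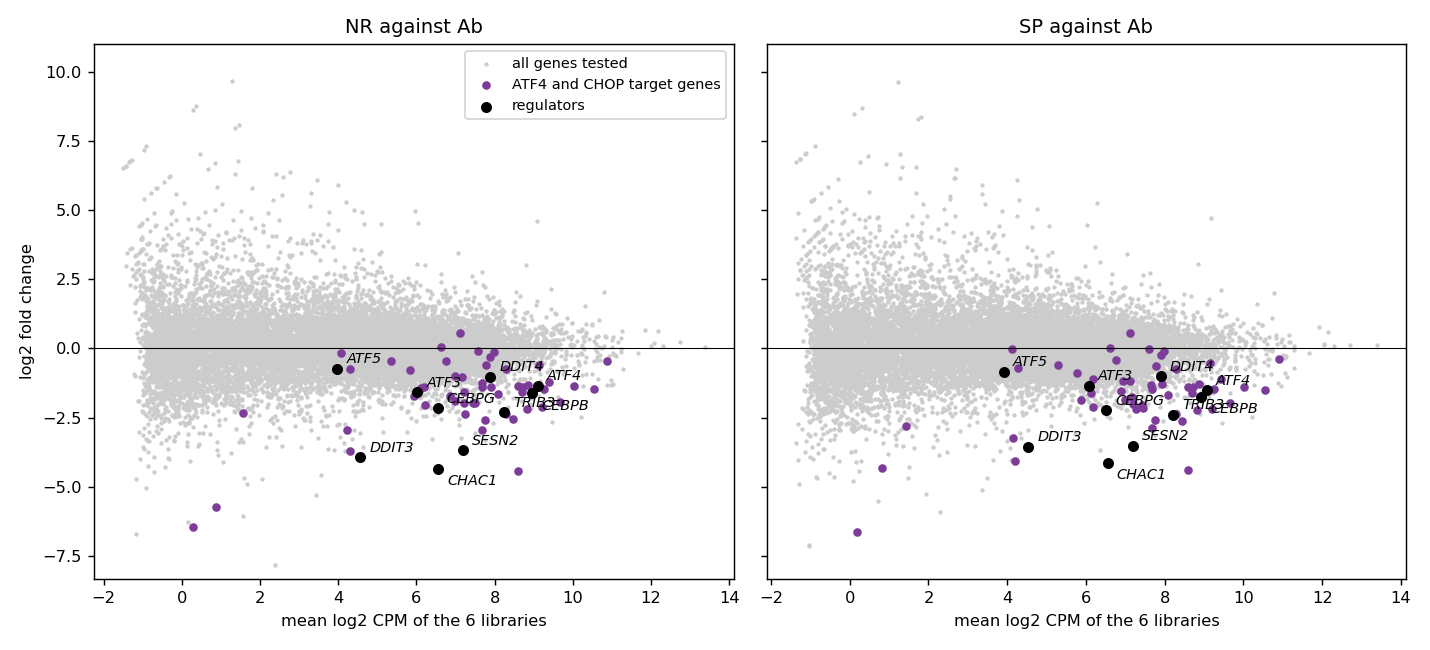
Log2 fold change against mean level (log2 CPM) for all genes tested (grey), the ATF4 and CHOP target genes (purple) and the 10 regulators (black, named), for NR against Ab and SP against Ab. All regulators lie below 0, and CHAC1, SESN2 and DDIT3 lie at the lower edge of genes of their level.

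Some genes that mark cell identity differed between the same groups, and their part in the results was not tested. Of 6 epithelial markers 5 were above 3 counts in every library, and their summed level was 2239 to 2388 CPM with gold and 888 to 953 with Ab, mostly from the keratin KRT8 (1848 to 2022 against 643 to 678 CPM). KRT19, another epithelial keratin, was at 0 or 1 count in every library. The antibody's target KDR (VEGFR2) was likewise at 0 or 1 count in every library, and a count of 3 corresponds to 0.114 to 0.216 CPM. The 5 fibroblast markers summed to 104 to 115 CPM with gold and 17.5 to 42.4 with Ab, with LUM or COL1A1 the most abundant, and DCN, LUM and PDGFRB were called higher in both gold groups. COL1A2 was uneven within groups, with 198, 278 and 33 counts in Ab, 37, 0 and 0 in NR and 49, 49 and 43 in SP. The 4 endothelial markers summed to 20.7 to 24.1 CPM with gold and 3.59 to 5.14 with Ab, nearly all from CDH5. Of the leukocyte markers, the defining PTPRC, CD3E and CD68 were at 0 to 2 counts in every library, although 85.6% of the exon bases of CD68 also belong to other genes, and CSF1R, a receptor of macrophages, held 56 to 124 counts per library with gold and 3 to 8 with Ab. CD14, a marker of monocytes, had 1 to 7 counts with gold and 8 to 21 with Ab, and on the CPM scale its NR and Ab libraries overlapped. The 6 gastric markers summed to 23.7 to 50.5 CPM with gold and 109 to 118 with Ab, nearly all from the mucin MUC5AC. They did not all fall. Of 3 tested in NR against Ab, 2 were called lower and 1 higher. In SP against Ab 4 were tested, with 2 called lower and 2 higher. Among all genes, 10.3% and 10.6% were called lower and 12.4% and 12.6% higher. GKN1 had 12 to 36 counts per library with gold and 5 to 11 with Ab. CLDN18 had 15 to 22 in SP and 4 to 6 in Ab. Mitochondrial genes took 4.36% to 4.66% of counts with gold and 3.41% to 3.71% with Ab. In these bulk libraries, fewer cells of a kind and less RNA per cell cannot be told apart.

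The eIF2 machinery acts upstream of ATF4. Of its 20 genes 2 were called lower and 1 higher in each comparison with Ab. Among all genes, 10.3% and 10.6% were called lower and 12.4% and 12.6% higher. The count called lower is thus near the share over all genes. On the adjusted p alone 7 were lower and 10 higher in NR, and 7 lower and 11 higher in SP, where 36.4% and 36.6% of all genes were lower and 36.4% higher in both, with medians of 0.13 and 0.14 on the log2 scale in NR and SP. PPP1R15A (GADD34), which recruits the phosphatase that removes the phosphate from eIF2 and is itself an ATF4 target, was at 385, 345 and 349 CPM in Ab, at 44.5, 47.8 and 47.6 in NR and at 51.7, 48.5 and 46.8 in SP, with log2 fold changes of -2.95 and -2.87. Its constitutive counterpart PPP1R15B changed by -0.53 and -0.48, below the 2-fold minimum. EIF2S2, the β subunit of eIF2, was called lower with log2 fold changes of -1.43 and -1.46, while the α subunit EIF2S1 changed by -0.59 and -0.56 and the γ subunit EIF2S3 by 0.12 and 0.15.

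OMA1, a mitochondrial protease that activates the response through DELE1, was the gene of this list called higher. It was at 4.32, 4.76 and 4.65 CPM in Ab, at 21.7, 20.2 and 19.8 in NR and at 23.1, 20.3 and 19.97 in SP, with log2 fold changes of 2.17 and 2.21. DELE1 itself changed by 0.19 and 0.20. None of the 4 eIF2 kinases was called by edgeR. EIF2AK1 (HRI) had log2 fold changes of 0.50 and 0.51 and EIF2AK4 (GCN2) of 0.20 and 0.23, all past the adjusted p. EIF2AK3 (PERK) was at 0.05 (adjusted p = 0.58) in NR and 0.20 (adjusted p = 0.0318) in SP, and EIF2AK2 (PKR) at 0.06 (adjusted p = 0.281) and 0.09 (0.151). The subunits of eIF2B, which exchanges the nucleotide on eIF2, went both ways, from -0.60 and -0.69 for EIF2B4 to 0.64 and 0.67 for EIF2B3. These are mRNA levels, and the phosphorylation of eIF2 was not measured here.

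Most ATF4 and CHOP target genes fell with the regulators. This list too was chosen with earlier results of these data known, so its counts are not independent evidence. Of 53 listed, 52 could be tested against Ab, and 38 of them were called lower and 0 higher in NR, and 38 lower and 0 higher in SP, where 10.3% and 10.6% of all genes were called lower. On the adjusted p alone 48 were lower and 1 higher in NR, and 47 lower and 1 higher in SP, against 36.4% and 36.6% of all genes lower. The medians were -1.44 (NR) and -1.50 (SP) on the log2 scale. SLC7A3, an amino acid transporter, had 0 counts in every library. STC2 (stanniocalcin 2), a secreted glycoprotein, was at 749, 740 and 741 CPM in Ab, at 35.8, 35.0 and 30.9 in NR and at 39.3, 32.2 and 33.6 in SP, with log2 fold changes of -4.45 and -4.40. NUPR1, a small stress-induced nuclear protein with 38 to 67 counts per gold library, was at 33.9 to 36.0 CPM in Ab, at 2.37 to 3.16 in NR and at 1.92 to 2.27 in SP, with -3.70 and -4.06.

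FGF21, a secreted metabolic hormone, had 37, 49 and 51 counts in Ab, 1, 0 and 0 in NR and 0, 1 and 0 in SP. Set against a floor of 3 counts per library, this was at least 12.1-fold lower in NR and at least 15.2-fold lower in SP. CBS, which makes cystathionine, had 1, 0 and 2 counts in NR, at least 18.5-fold lower on the same floor, and 6, 2 and 2 in SP against 53, 89 and 70 in Ab. With these genes at their bounds the medians of the list were also -1.44 and -1.50. ASNS, the asparagine synthetase whose promoter is printed above, changed by -2.57 and -2.58. Of the exon bases of ASNS 49.3%, and of those of CBS 36.8%, also belong to another gene, whose part in the counts was not tested. ALDH18A1, a proline synthesis enzyme, was higher by 0.57 and 0.56, below the 2-fold minimum, and PYCR1, which acts later in the same synthesis, changed by -0.45 and -0.43. ERO1A, KLHL24 and NARS1 did not pass the adjusted p in either comparison, nor did IARS1 in SP against Ab. In NR against SP, 0 of the 50 target genes tested were called or passed the adjusted p by edgeR, where 0.0201% of all genes were called and 0.443% passed. There were 12 at an unadjusted p under 0.05, against 12.9% of all genes, and DESeq2 called 0.

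The genes of the other ER stress branches, which run through ATF6 and IRE1, held genes called in either direction. Of 26 tested, 5 were called lower and 3 higher in each comparison with Ab, where 10.3% and 10.6% of all genes were called lower and 12.4% and 12.6% higher. On the adjusted p alone 20 were lower and 6 higher, against 36.4% and 36.6% of all genes lower, with medians of -0.42 in NR and -0.48 in SP. The largest falls were in HERPUD1 (-1.97 and -2.15), which acts in the degradation of ER proteins and is on the target list as well, DNAJB9 (-1.67 and -1.78), an ER co-chaperone, and ERN1 (-1.50 and -1.36), which encodes IRE1 itself. HSPA5 (BiP), the main ER chaperone, was at 2598 to 2716 CPM in Ab, at 1067 to 1086 in NR and at 1070 to 1194 in SP, with log2 fold changes of -1.31 and -1.25. The 3 genes called higher were DERL3 (2.57 and 2.53), SDF2L1 (1.37 and 1.16) and CALR (1.13 and 1.20), of which SDF2L1 and CALR (calreticulin) are ER chaperone genes. DERL3, an ER degradation factor, rested on 9 to 77 counts per library, and 77.0% of its exon bases also belong to other genes. XBP1, the factor that IRE1 splices, changed by -0.43 and -0.53.

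Relatives of the regulators show which members of each family moved. SESN1, the sestrin best known as a p53 target, went the other way from SESN2, with log2 fold changes of 0.94 and 0.98 (edgeR adjusted p = 2.38e-08 and 1.9e-08), below the 2-fold minimum. It was at 6.82 to 7.87 CPM in Ab, at 12.8 to 15.3 in NR and at 13.2 to 16.9 in SP. CHAC2, the constitutive relative of CHAC1, was higher by 0.44 and 0.31. Per kb of exon, CHAC1 was above CHAC2 in Ab (86.9 ± 4.3 against 17.9 ± 0.8, SD, n = 3) and below it in NR (4.27 ± 0.28 against 24.2 ± 0.3).

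TRIB1 was lower, at -0.92 and -0.89, and TRIB2 did not pass the adjusted p. CEBPD did not pass it either (0.08 and 0.01; edgeR adjusted p = 0.424 and 0.881), in contrast to CEBPB and CEBPG, although a difference between these genes was not tested. CEBPA had 1 to 6 counts and CEBPE 0 to 3 in every library, and neither was tested. Of the 29 relatives 22 could be tested against Ab, with 3 called lower and 1 higher in NR and 4 lower and 1 higher in SP, where 10.3% and 10.6% of all genes were called lower and 12.4% and 12.6% higher. The AP-1 genes FOSL1 (-3.30 and -3.13), FOSB (-2.33 and -2.17) and JUN (-1.80 and -1.71) were the 3 called lower in both, and ATF1 was called in SP only (-0.95 and -1.06). FOS, in contrast, was higher at 1.61 and 1.67, at 17.8 to 23.5 CPM in the gold libraries and 6.495 to 6.98 in Ab.

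**Figure D4:**
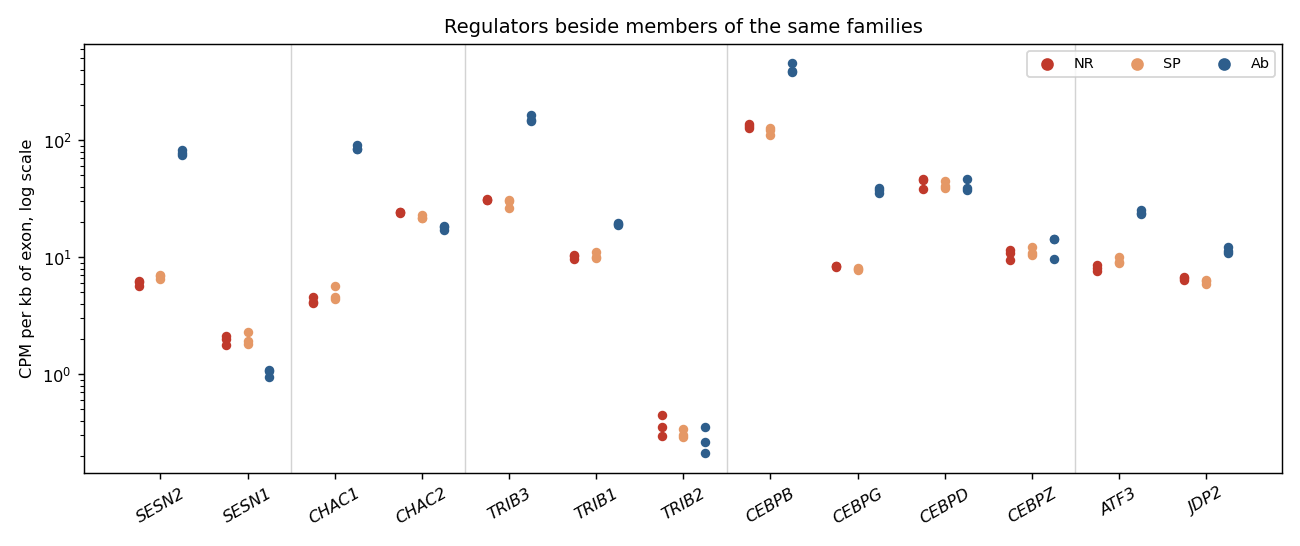
Level of SESN2, CHAC1, TRIB3, CEBPB, CEBPG and ATF3 beside relatives of the same families, in CPM per kb of exon on a log axis, 1 point per library. SESN1 and CHAC2 lie higher with gold than with the antibody alone, opposite to SESN2 and CHAC1, and CEBPD overlaps between the groups.

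The amino acid and mTORC1 sensors belong to the pathway on which SESN2 and DDIT4 act. Of 30 listed 27 were tested, with 3 called lower and 1 higher in each comparison and medians of 0.09 in both. Among all genes, 10.3% and 10.6% were called lower and 12.4% and 12.6% higher. The 3 of 27 called lower are thus near the share over all genes. Those called lower were FLCN (-1.46 and -1.36) and RRAGC (-1.08 and -1.12), which act on the lysosome where mTORC1 is recruited, and EIF4EBP1 (-1.04 and -1.17), a translation repressor that is also an ATF4 target. SEC13, a part of the GATOR2 complex that sestrin 2 binds and of the COPII coat, was higher by 1.10 and 1.12. MTOR itself changed by -0.27 and -0.12.

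Over the 9 libraries, the genes whose log2 CPM followed ATF4 most closely among 10763 genes with a mean of at least 100 counts were IER2 (Pearson r = 0.9991), UBE2D2 (0.9989), GFPT2 (0.9985), PFKFB4 (0.9984) and PEA15 (0.9984). For DDIT3 they were SLC20A1 (0.9986), LATS1 (0.9983), PELO (0.9981), FGF2 (0.9978) and CYP26B1 (0.9977). Among the members, TRIB3 (0.9954) and CEBPB (0.9951) were closest to ATF4, and CHAC1 (0.9964) and SESN2 (0.9962) to DDIT3. These values describe likeness only, and the 9 points share the step between the Ab group and the gold groups. The sizes of the change differed: PFKFB4, a regulator of glycolysis, changed by -3.28 and -3.67 and UBE2D2, a ubiquitin-conjugating enzyme, by -0.46 and -0.52.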

How the data were processed

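The deposited values are whole read counts per Ensembl gene, made by the authors from cleaned paired-end poly-A reads with HISAT2 2.1.0 and a gene counter, and not scaled between libraries. The methods' reporting summary names the human build hg19, while the submitters' processing notes list mm9. The gene IDs are human, and the annotation release and strand setting are not given in the sources used here. Of 60880 IDs, 59858 were named with GENCODE release 44 lifted to GRCh37, and the others held 0.102% to 0.115% of a library's counts.

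Groups were compared in pairs, without the libraries of the other group, in edgeR 4.0.16 (R 4.3.3; TMM scaling, filterByExpr with a minimum count of 10 and a total of 15, robust quasi-likelihood test, Benjamini-Hochberg adjustment over all genes tested). Levels are CPM after TMM scaling over the 9 libraries, also per kb of merged exon. The fits were tested on simulated counts in which far fewer genes changed than passed the adjusted p against Ab in the data. That test cannot show how TMM scaling behaves under so broad a shift. Within groups, the chi-square per gene between libraries was 1.84 to 7.44, above sampling noise, so none was a duplicate. Replicate numbers did not pair libraries (same-number r of -0.03 to 0.03).

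The members and gene lists were chosen with earlier results of these data known. Named genes are the 10 members, the machinery and relatives by value, up to 4 called genes that rose most and 4 that fell most in NR against Ab from the target list and from the ATF6 and IRE1 list, and the 5 genes most like ATF4 and DDIT3. Other genes were singled out once their values were known. Alternatives tried were DESeq2 1.42.0, RLE scaling, other count filters, no fold minimum, glmTreat, 1 fit over 9 libraries, a replicate block and each library left out. Detection limits (3 counts) cover counting error only. PECAM1 was not analysed here. The level of 1 leukocyte marker, and the sum over that list, are not reported here.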

Additional observations from a re-analysis of the deposited data

Results flagged for a closer look

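JUND, a member of the AP-1 family among the relatives of the regulators, passed the adjusted p between the gold groups. Its level was 185, 173 and 175 CPM in Ab, 181, 179 and 181 in NR and 153, 168 and 157 in SP. NR exceeded SP by 0.18 on the log2 scale (edgeR adjusted p = 0.047), with all 3 NR libraries above all 3 SP libraries, and 0.03 in NR and -0.15 in SP against Ab. The change was below the 2-fold minimum, and it was the only gene of the listed relatives to pass.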

How the results depend on the processing

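Under the 12 alternatives that keep the 2-fold call rule, all 10 members kept their direction and passed the adjusted p against Ab in both comparisons. DDIT4 was called in 11 of these in NR and 6 in SP, and ATF5 in 0. Without a fold minimum all 10 were called in both comparisons, and with glmTreat 8 were. Without a fold minimum 10916 genes were called in NR against Ab, 11002 in SP against Ab and 66 in NR against SP, in place of 3409, 3502 and 3. With glmTreat against 2-fold they were 2061, 2131 and 0. In NR against SP, DESeq2 called 1 gene, the lack of a filter beyond 1 count gave 27, and leaving out 1 library gave 0 (without NR2) to 28 (without NR1), 1 without SP1 and 5 without SP3. The cause of these shifts was not tested. With a replicate block, 3414, 3493 and 4 genes and 9, 8 and 0 members were called, and the block changed no member's call. Depth limits DDIT3, NUPR1, FOSB, FGF21 and CBS with gold, where counts were below 100 per library. DERL3 was below 100 counts in every library and lowest in Ab, at 16, 9 and 9.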
